A study of Mus musculus with 6 samples.

Results

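The genes described here are 32 named genes of fibroblasts, smooth muscle cells and pericytes, the stromal cells that build and tension the connective tissue of the lung. They were chosen by name from a list, with earlier results of these data known. All 32 were found among the 20687 gene symbols of the series. The samples were whole lung from C57BL/6 mice given 100000 KP cells by tail vein injection and harvested 28 days later, with the lungs of 3 mice pooled per sample (Lung_KP, 3 samples from independent experiments). They were compared with the KP cell line itself, of the same strain label (CellLine_KP, 3 preparations). The lungs had been digested with collagenase before RNA was extracted. The labels give neither the genotype of the KP line nor the age of the mice, and no tumour-free lung was part of the comparison. Nothing says that the 3 cell preparations were grown separately, so the p-values reflect only how far these samples differ, which may be technical.

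Elastic fibres give the lung its recoil. They form when tropoelastin is laid on microfibrils of fibrillin with the help of fibulins and microfibril-associated proteins. Lysyl oxidases then cross-link it into an insoluble polymer. In the lung these proteins come mostly from alveolar and adventitial fibroblasts, and from the smooth muscle of airways and vessels. Pericytes are contractile cells that wrap capillaries. Epithelial tumour cells are not a usual source of elastin or of smooth muscle myosin, although they can express single lysyl oxidases.

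Estimated counts summed to between 17786758 and 22862396 per sample. Levels are given in CPM, counts scaled to a common library size by the TMM method. Surfactant and club cell genes marked the lung samples. The lung lineage factor Nkx2-1 stood at 105, 78.9 and 128 CPM in lung, with 0 counts in the cell line. Keratin 8 (Krt8) stood at 1252, 1631 and 823 CPM in lung and at 996, 3426 and 3451 CPM in the cell line. Replicates were uneven. Lung replicate 2 and cell line replicate 1 stood apart from the others of their group, with chi-square values per degree of freedom of 205.13 or more against them, while cell line replicates 2 and 3 were close to each other (2.59). Cell line samples also held lymphocyte transcripts, with 6 B cell markers summing to 422, 959 and 570 CPM in lung and to 273, 252 and 146 CPM in the cell line.

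Stromal genes stood far higher in the lung samples than in cultured KP cells. By the edgeR quasi-likelihood test at an adjusted p below 0.05, 27 of the 32 genes were higher in lung, against 31.3% of the 15212 genes tested. There were 2 lower, Lgr6 and Loxl4, against 17.5% of all genes, and Npnt, Loxl2 and Loxl3 did not pass. In either direction the share called over all genes was 48.8%. The same 27 genes had no overlap between groups in the upward direction (35.6% of all genes) and the same 2 in the downward direction (26.5%). Groups without overlap in either direction made up 62.2% of all genes. The median log2 fold change was 5.65 over the 32 genes and 0.08 over all genes tested. All 32 passed the filter on low counts, but 18 lacked 10 counts in at least 1 sample. The others, 14 genes with 10 or more counts in all 6 samples, held 9 of the higher and 2 of the lower calls. In whole tissue, a gene can be higher because more cells express it or because each cell holds more RNA, and these cannot be told apart here. With library size alone as the scaling, 75.1% of all calls were higher in lung against 64.1% with TMM, and the median of all genes shifted by 0.23 on the log2 scale. The number of genes called among the 32 was then still 27 and 2.

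**Figure D1:**
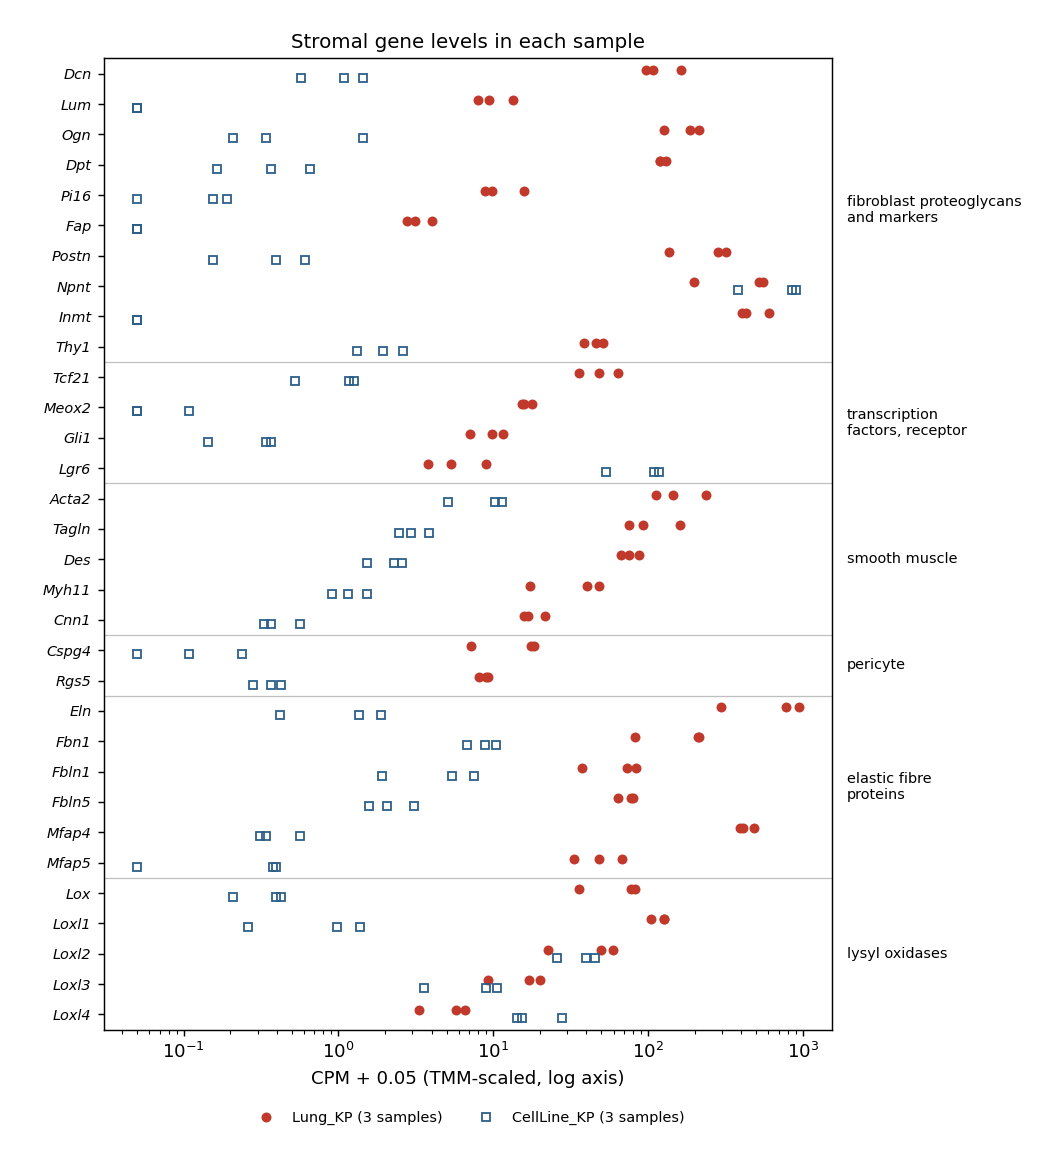
Level of each of the 32 stromal genes in every sample, as CPM plus 0.05 on a log axis. Filled circles are the 3 lung samples and open squares the 3 cell line samples; squares at the left edge are samples with 0 counts. The groups overlap for Npnt, Loxl2 and Loxl3, and lie in the reverse order for Lgr6 and Loxl4.

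The summed level of the 32 genes was 4221, 3128 and 4239 CPM in lung replicates 1, 2 and 3, against 531, 1070 and 1122 CPM in cell line replicates 1, 2 and 3. Most of the cell line sum was Npnt. Without it the sums were 3697, 2931 and 3682 CPM in lung, and 149, 221 and 221 CPM in the cell line. The 27 genes called higher summed to 3617, 2892 and 3591 CPM in lung and to 38.9, 45.6 and 35.3 CPM in the cell line.

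Fibroblast proteoglycans and markers rose in 9 of 10 genes, beside 31.3% of all genes. Their median log2 fold change was 8.26 (7.28 with genes at 0 in the cell line set to their bound). Dcn encodes decorin, a small proteoglycan that binds collagen fibrils. It stood at 96.8, 107 and 164 CPM in lung and at 1.4, 1.04 and 0.526 CPM in the cell line, with a log2 fold change of 6.94 (SE 0.46, edgeR adjusted p = 3.09e-05). Ogn, or osteoglycin, is a related proteoglycan. It stood at 188, 127 and 215 CPM in lung, against 1.4, 0.288 and 0.158 CPM in the cell line. Its log2 fold change was 8.11 (SE 0.76, edgeR adjusted p = 8.98e-05), and 9.60 without cell line replicate 1, the highest of its group. Lum, lumican, is the least abundant of these proteoglycans. It stood at 7.94, 9.33 and 13.3 CPM in lung. No cell line sample held a count, and against a floor of 3 counts over that group lung was at least 192-fold higher.

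Dpt encodes dermatopontin, a matrix protein of the adventitial and dermal fibroblasts. Its lung levels were nearly the same in all samples, at 119, 119 and 131 CPM, against 0.606, 0.115 and 0.316 CPM in the cell line. The log2 fold change was 8.41 (SE 0.50, edgeR adjusted p = 2.23e-05), and 9.08 without cell line replicate 1. Pi16, a peptidase inhibitor that marks adventitial fibroblasts, was lower in level. It stood at 8.74, 9.81 and 15.7 CPM in lung, against 3, 0 and 2 counts in cell line replicates 1, 2 and 3, with a log2 fold change of 6.96 (SE 0.66, edgeR adjusted p = 9.30e-05). Fap encodes fibroblast activation protein, a surface protease of activated fibroblasts in wounds and tumours. It had the lowest mean CPM of the 32 genes in lung, at 3.95, 2.74 and 3.06 CPM, and had 0 counts in the cell line, so lung was at least 63.3-fold higher.

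Postn encodes periostin, a matricellular protein made by activated fibroblasts and, in some tissues, by muscle and bone cells. It stood at 320, 136 and 285 CPM in lung and at 0.560, 0.345 and 0.105 CPM in the cell line. The log2 fold change was 9.47 (SE 0.65, edgeR adjusted p = 3.14e-05), and 10.07 without cell line replicate 1. Of its 8 annotated transcripts in the table, Postn-204 held 89.9%, 85.5% and 92.1% of the estimated counts in lung replicates 1, 2 and 3. RefSeq lists more than 1 start site for the gene (GRCm38.p6), and the window of the downstream one holds a TATAAA at bases -26 to -21 from the start, shown in capitals, which is where a TATA box usually lies. The sequence is printed as the promoter of the most abundant of the activation-linked genes, from chr3:54360857-54361156 on the plus strand.
Postn: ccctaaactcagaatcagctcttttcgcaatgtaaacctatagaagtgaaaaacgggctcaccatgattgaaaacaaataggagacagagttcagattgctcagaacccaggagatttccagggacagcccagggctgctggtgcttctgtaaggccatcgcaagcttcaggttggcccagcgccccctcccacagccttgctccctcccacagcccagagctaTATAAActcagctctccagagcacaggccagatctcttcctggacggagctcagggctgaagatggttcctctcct

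Inmt encodes an N-methyltransferase that is abundant in lung and marks alveolar fibroblasts in mouse. It stood at 405, 607 and 428 CPM in lung. All 3 cell line samples had 0 counts, so lung was at least 9254-fold higher, the largest bound among the 32 genes. Its promoter window is shown as that of the gene with the widest gap between groups, from chr6:55174941-55175240 on the minus strand (RefSeq, GRCm38.p6). The capitals mark TATAAA at -80 to -75 and at -69 to -64, which is further from the annotated start than in Postn.
Inmt: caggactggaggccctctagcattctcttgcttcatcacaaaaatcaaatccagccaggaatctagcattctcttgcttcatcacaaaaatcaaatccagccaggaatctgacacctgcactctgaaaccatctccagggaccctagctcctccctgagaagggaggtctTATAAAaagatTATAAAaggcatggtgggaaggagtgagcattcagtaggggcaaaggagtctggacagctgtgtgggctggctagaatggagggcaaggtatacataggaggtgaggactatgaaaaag
TATAAA was searched on both strands. It was found in 22.73% of the 22 windows of these genes and in 13.62% of all 32851 windows in the table. RefSeq windows, which run from 250 bases before to 50 bases after a start, were at hand for 18 of the 32 genes.

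Thy1 encodes a surface glycoprotein of fibroblasts and, in mouse, of T cells. It stood at 46.2, 51.0 and 38.5 CPM in lung, against 2.56, 1.90 and 1.26 CPM in the cell line, a log2 fold change of 4.56 (SE 0.35, edgeR adjusted p = 4.10e-05). Markers of T cells moved the same way: 6 of 6 were higher in lung, against 31.3% of all genes. Their sums were 164, 181 and 137 CPM in lung and 19.2, 15.1 and 8.90 CPM in the cell line. Their part in the Thy1 difference was not tested.

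Npnt went apart from the other fibroblast genes. It encodes nephronectin, a basement membrane ligand of the integrin alpha8 beta1, and in lung it is made by alveolar fibroblasts and epithelial cells. It stood at 523, 197 and 557 CPM in lung and at 382, 849 and 902 CPM in the cell line, where it was the most abundant of the 32 genes. The groups overlapped, because lung replicates 1 and 3 lay above cell line replicate 1. The log2 fold change was -0.74 (SE 0.48, edgeR adjusted p = 0.237). With both outlying libraries left out it was -0.70 with an edgeR adjusted p of 9.41e-04, in a fit that takes its spread from the closest pair of each group. The isoforms also differed in share. Npnt-201 held 0.0349%, 0.0998% and 0.555% of the gene's counts in lung, against 7.03%, 5.76% and 6.27% in the cell line, while Npnt-202 held over 89% in every sample. These shares rest on how the quantification divided reads between isoforms and were not tested.

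**Figure D2:**
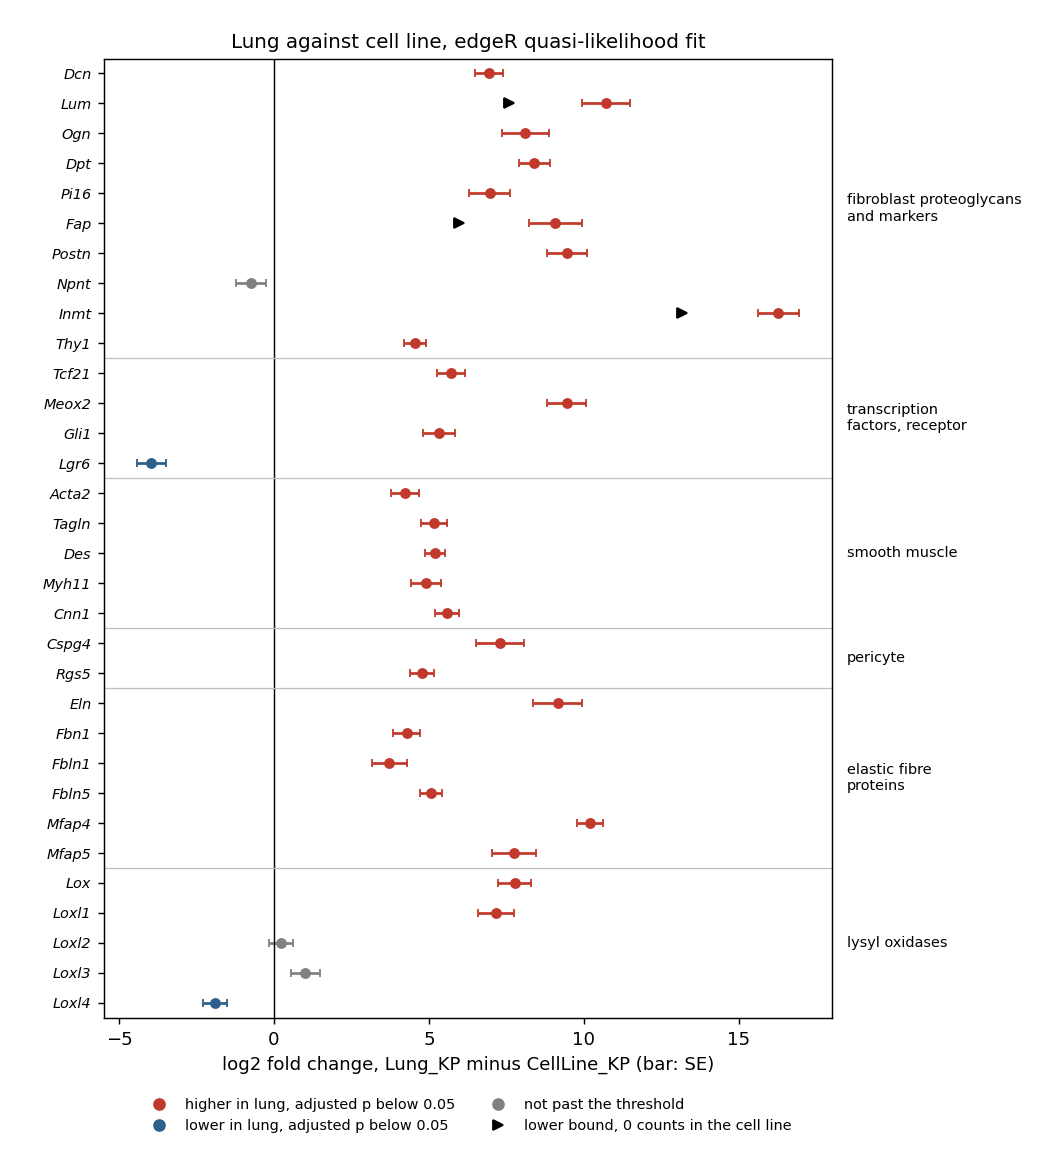
Log2 fold change of each gene, lung minus cell line, from the edgeR fit, with bars of 1 SE. Triangles give the lower bound for Lum, Fap and Inmt, which had 0 counts in the cell line, so that their points are fitted values that depend on the prior count. Among genes called higher that had counts in the cell line, fold changes run from 3.73 for Fbln1 to 10.20 for Mfap4, and Lgr6 lies furthest to the left at -3.96.

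The stromal transcription factors of the list rose, and a receptor linked to stem cells fell (median log2 fold change 5.52 over 4 genes). Tcf21 is a basic helix-loop-helix factor needed for lung mesenchyme. It stood at 48.2, 63.9 and 35.7 CPM in lung and at 1.12, 1.21 and 0.474 CPM in the cell line, a log2 fold change of 5.71 (SE 0.45, edgeR adjusted p = 4.54e-05). Meox2 is a homeobox factor of mesenchyme and vessels. It stood at 17.8, 15.4 and 15.8 CPM in lung, with 1 count over the cell line samples, a ratio of 948 with a 95% exact interval of 170 to 37489 for counting error alone. The fit gave 9.45 on the log2 scale, and 11.42 once cell line replicate 2, which held the count, was left out. Gli1, the transcription factor and target gene of hedgehog signalling, stood at 9.74, 6.98 and 11.5 CPM in lung, against 0.0933, 0.288 and 0.316 CPM in the cell line, a log2 fold change of 5.33 (SE 0.52, edgeR adjusted p = 1.05e-04).

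Lgr6 encodes a receptor for R-spondins that marks stem cells of several epithelia and, in mouse lung, cells of airway smooth muscle. It ran opposite to the smooth muscle genes. It stood at 5.31, 3.76 and 8.88 CPM in lung and at 53.4, 109 and 117 CPM in the cell line, with no overlap. The log2 fold change was -3.96 (SE 0.46, edgeR adjusted p = 2.34e-04), and from -4.36 to -3.78 when any 1 sample was left out. Within the cell line, Lgr6 in replicate 1 was lowest, as was Npnt. The isoform Lgr6-202 held 6.83% to 17.3% of the gene's counts in the cell line samples and was listed at 0 in lung.

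All 5 smooth muscle genes rose (median log2 fold change 5.17), and the groups did not overlap for any of them. Over all genes tested, 31.3% were called higher and 35.6% had no overlap in that direction. Acta2 encodes smooth muscle actin, found in smooth muscle, pericytes and myofibroblasts. It stood at 146, 237 and 112 CPM in lung and at 5.04, 10.2 and 11.3 CPM in the cell line, with a log2 fold change of 4.22 (SE 0.45, edgeR adjusted p = 1.57e-04). Without lung replicate 2 and cell line replicate 1 together it was 3.58. Tagln, transgelin, is an actin-binding protein of the same cells. It stood at 92.9, 160 and 75.2 CPM in lung and at 2.42, 3.80 and 2.90 CPM in the cell line, a log2 fold change of 5.17 (SE 0.41, edgeR adjusted p = 4.56e-05). For both genes lung replicate 2 was the highest of its group.

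Des encodes desmin, the intermediate filament of muscle. It stood at 66.6, 87.5 and 75.4 CPM in lung, against 2.52, 2.24 and 1.47 CPM in the cell line, a log2 fold change of 5.20 (SE 0.32, edgeR adjusted p = 2.49e-05). Desmin is also made by heart muscle, whose sleeves surround the pulmonary veins in mouse. Of 6 heart muscle markers, 5 were tested. Of these, 4 rose in lung and Tnnt2 fell, beside 31.3% and 17.5% of all genes. The cardiac myosin Myh6 stood at 29.5, 15.3 and 44.8 CPM in lung, with 0 counts in KP cells. The list summed to 98.6, 157 and 113 CPM in lung and to 24.5, 74.6 and 75.2 CPM in the cell line, where nearly all of it was Tnnt2. Skeletal muscle markers summed to 7.16 CPM or less in any lung sample. The part of heart muscle in the level of Des was not tested.

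Myh11, the smooth muscle myosin heavy chain, is more restricted to mature smooth muscle than actin. It stood at 40.4, 17.2 and 48.4 CPM in lung and at 1.49, 0.863 and 1.11 CPM in the cell line, with a log2 fold change of 4.92 (SE 0.48, edgeR adjusted p = 1.13e-04). Cnn1, calponin, regulates the same contractile apparatus. It stood at 15.8, 21.6 and 16.7 CPM in lung and at 0.280, 0.518 and 0.316 CPM in the cell line, a log2 fold change of 5.59 (SE 0.39, edgeR adjusted p = 3.14e-05). In lung replicate 2, Myh11 was lowest and Acta2, Tagln, Des and Cnn1 were highest.

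Smooth muscle genes are textbook targets of serum response factor, which binds the CArG box. The promoter of Acta2 is shown as that of the smooth muscle gene with the highest mean lung CPM. It is taken from chr19:34255324-34255623 on the minus strand (RefSeq, GRCm38.p6). The part of serum response factor in these differences was not tested. The capitals mark 2 matches to the CArG box with 1 letter off, at -84 to -75 and at -34 to -25 from the annotated start.
Acta2: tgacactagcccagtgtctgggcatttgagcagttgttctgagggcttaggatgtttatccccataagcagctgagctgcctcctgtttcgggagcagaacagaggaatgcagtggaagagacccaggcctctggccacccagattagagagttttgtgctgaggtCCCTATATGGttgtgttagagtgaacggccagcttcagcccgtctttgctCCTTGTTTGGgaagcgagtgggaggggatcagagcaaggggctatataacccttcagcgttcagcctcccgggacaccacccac
Exact CArG boxes were found in 0 of the 22 windows of the list and in 1.63% of all windows, on both strands. With at most 1 letter off, a search added after the exact one, the shares were 18.18% and 21.11%. Other matches of that kind were in Cspg4 and Fbln1. None was found for Myh11, Tagln, Cnn1 or Des, though not every gene had a window at hand. Each window was counted once however many matches it held. The 4 windows with a match belonged to 3 genes, because overlapping windows of Fbln1 hold the same site.

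Both pericyte genes rose (median log2 fold change 6.04), beside 31.3% of all genes. Cspg4, or NG2, is a surface proteoglycan of pericytes and of glial precursors. It stood at 17.5, 7.16 and 18.4 CPM in lung, against 4, 1 and 0 counts in cell line replicates 1, 2 and 3. Its log2 fold change of 7.30 (SE 0.78, edgeR adjusted p = 1.62e-04) was 8.73 with cell line replicate 1 left out and 6.71 with replicate 3 left out. Its reads fell largely on transcripts annotated with a retained intron: the coding transcript held 34.9%, 8.61% and 48.3% of its counts in lung replicates 1, 2 and 3. The glial factor Sox10 stood at 0.0884 CPM or less in every lung sample. Rgs5, a regulator of G protein signalling in pericytes, was even across lung at 9.18, 8.0 and 8.93 CPM, against 0.373, 0.230 and 0.316 CPM in the cell line, a log2 fold change of 4.79 (SE 0.39, edgeR adjusted p = 4.89e-05).

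All 6 elastic fibre genes rose (median log2 fold change 6.41), beside 31.3% of all genes. Their sums were 1747, 958 and 1675 CPM in lung against 17.4, 20.7 and 14.2 CPM in the cell line. Eln, tropoelastin, had the highest mean CPM of the 32 genes in lung, although Inmt and Mfap4 stood above it in lung replicate 2. It stood at 944, 294 and 781 CPM in lung and at 1.31, 1.84 and 0.369 CPM in the cell line, a log2 fold change of 9.16 (SE 0.79, edgeR adjusted p = 6.63e-05). Lung replicate 2 held far less Eln than the others and was still far above every cell line sample. The coding transcript Eln-201 held 79.3%, 60.9% and 73.7% of the gene's counts in lung, and Eln-203, annotated for nonsense-mediated decay, held 18.6%, 34.7% and 22.4%.

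Mfap4, a microfibril-associated glycoprotein that binds elastin, was abundant and even across the lung samples. It stood at 394, 412 and 483 CPM in lung and at 0.513, 0.288 and 0.263 CPM in the cell line, with a log2 fold change of 10.20 (SE 0.42, edgeR adjusted p = 1.18e-05). Mfap5, a component of microfibrils themselves, stood at 48.1, 67.9 and 33.1 CPM in lung and at 0.326, 0.345 and 0 CPM in the cell line. Its log2 fold change of 7.75 (SE 0.72, edgeR adjusted p = 8.41e-05) was 7.13 with cell line replicate 3 left out.

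Fbn1 encodes fibrillin-1, the backbone of microfibrils. It stood at 209, 82.1 and 215 CPM in lung and at 10.4, 8.75 and 6.69 CPM in the cell line, a log2 fold change of 4.29 (SE 0.44, edgeR adjusted p = 1.43e-04). Fbln5, a fibulin that brings tropoelastin to microfibrils, stood at 77.7, 64.0 and 79.8 CPM in lung, against 3.03, 2.01 and 1.53 CPM in the cell line, a log2 fold change of 5.07 (SE 0.35, edgeR adjusted p = 3.11e-05). Fbln1, a fibulin of basement membranes and elastic fibres, had the smallest rise of the 27 genes. It stood at 73.6, 37.5 and 83.1 CPM in lung and at 1.87, 7.48 and 5.37 CPM in the cell line, with a log2 fold change of 3.73 (SE 0.55, edgeR adjusted p = 8.50e-04). The shorter transcript Fbln1-202 held 28.9%, 29.9% and 33.2% of its counts in lung, against 14.5%, 39.1% and 49.5% in the cell line, so the cell line samples spread around the lung samples.

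Lysyl oxidases differed by member, with a median log2 fold change of 1.01. Of the 5 genes, 2 were higher and 1 lower, beside 31.3% and 17.5% of all genes. Nothing particular to the family is read from these counts. The 5 copper-dependent enzymes of this family oxidise lysines of elastin and collagen, which then cross-link. Lox stood at 82.3, 36.0 and 77.1 CPM in lung and at 0.373, 0.345 and 0.158 CPM in the cell line, a log2 fold change of 7.77 (SE 0.53, edgeR adjusted p = 3.09e-05). Loxl1, the member tied to elastin renewal, stood at 127, 105 and 127 CPM in lung, against 0.933, 1.3 and 0.211 CPM in the cell line, a log2 fold change of 7.18 (SE 0.58, edgeR adjusted p = 5.07e-05). These 2 genes had no overlap between groups and nearly no signal in the cell line.

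The other members were not called higher. Loxl2, which cross-links collagen IV in basement membranes, stood at 49.3, 22.4 and 59.1 CPM in lung and at 25.7, 39.9 and 45.2 CPM in the cell line. The groups overlapped, and the log2 fold change of 0.24 (SE 0.39, edgeR adjusted p = 0.641) was -0.04 without lung replicate 3. Loxl3 stood at 20.1, 9.19 and 17.1 CPM in lung and at 3.50, 10.6 and 8.95 CPM in the cell line, a log2 fold change of 1.01 (SE 0.47, edgeR adjusted p = 0.109). Loxl4 fell: it stood at 5.67, 3.27 and 6.49 CPM in lung, against 27.9, 15.4 and 14.2 CPM in the cell line, with no overlap. Its log2 fold change was -1.90 (SE 0.39, edgeR adjusted p = 0.00458), and from -2.13 to -1.54 when any 1 sample was left out. Without lung replicate 2 and cell line replicate 1 together, the edgeR adjusted p was 0.0447 for Loxl2 and 0.00372 for Loxl3, with log2 fold changes of 0.34 and 0.92, and the log2 fold change of Loxl4 was -1.29.

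Levels can be compared between members once they are divided by transcript length (TPM, from annotated lengths). The family summed to 123 ± 48.3 TPM in lung and 27.7 ± 3.00 TPM in the cell line (SD, n = 3 each). Loxl1 made up 57.6% ± 8.50 of the family in lung and 1.60% ± 1.04 in the cell line. Lox made up 21.4% ± 3.96 in lung and 0.416% ± 0.177 in the cell line. Loxl2 made up 12.3% ± 3.12 in lung and 47.3% ± 11.8 in the cell line. Loxl4 made up 2.12% ± 0.255 in lung and 35.1% ± 17.9 in the cell line, where replicate 1 held 55.8% and the others 24.8% each. Loxl3 made up 6.54% ± 1.55 in lung and 15.6% ± 9.27 in the cell line. Thus Loxl1 and Lox led in every lung sample, and Loxl2 and Loxl4 held most of the family in every cell line sample.

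**Figure D3:**
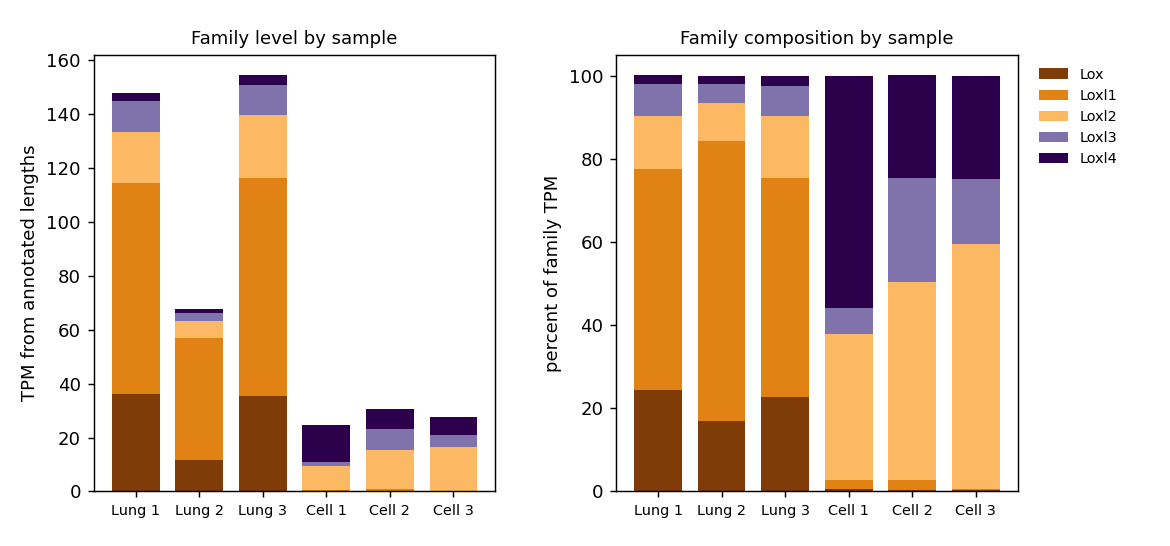
Lysyl oxidase family in each sample, lung on the left and cell line on the right of each panel. The left panel stacks TPM and the right panel the percent of the family sum; lung replicate 2 has the lowest lung sum (67.7 TPM), and its composition is still led by Loxl1 (67.4%).

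On the length-scaled TPM scale, the order of the 32 genes in lung began with Inmt at 806 ± 36.0, Mfap4 at 474 ± 125 and Eln at 384 ± 223 TPM (SD, n = 3). Npnt (191 ± 112), Postn (178 ± 82.6), Acta2 (144 ± 26.5), Dpt (133 ± 31.1), Ogn (132 ± 54.4), Dcn (131 ± 56.4) and Tagln (124 ± 21.6) followed, and each pair of neighbours among these differed by less than the larger of their SDs. Mfap4 and Eln also lay within their spread of each other. At the low end stood Lgr6 at 1.81 ± 0.991 and Fap at 2.47 ± 0.726 TPM. In the cell line the order began with Npnt at 297 ± 120, Lgr6 at 33.1 ± 14.3, Loxl2 at 13.2 ± 4.01 and Loxl4 at 9.40 ± 3.78 TPM.

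Lung replicate 2 differed from the other lung samples by transcript length, and this reached most of the genes here. It was the lowest lung sample for 20 of the 32 genes and the highest for 8. Its log2 deviation from the mean of lung replicates 1 and 3 had a median of 0.26 over the 13 genes under 2500 bases and of -0.98 over the 19 longer ones. Across the 32 genes the deviation correlated with log2 length at r = -0.82 (Spearman rho -0.84), a description over genes that share the same 3 libraries, and at r = -0.78 over 14472 genes. By group the median deviation was 0.40 for smooth muscle genes, -0.67 for elastic fibre genes and -0.98 for lysyl oxidases. A higher share of contractile than of matrix transcripts in that pool cannot be told apart from the length trend.

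**Figure D4:**
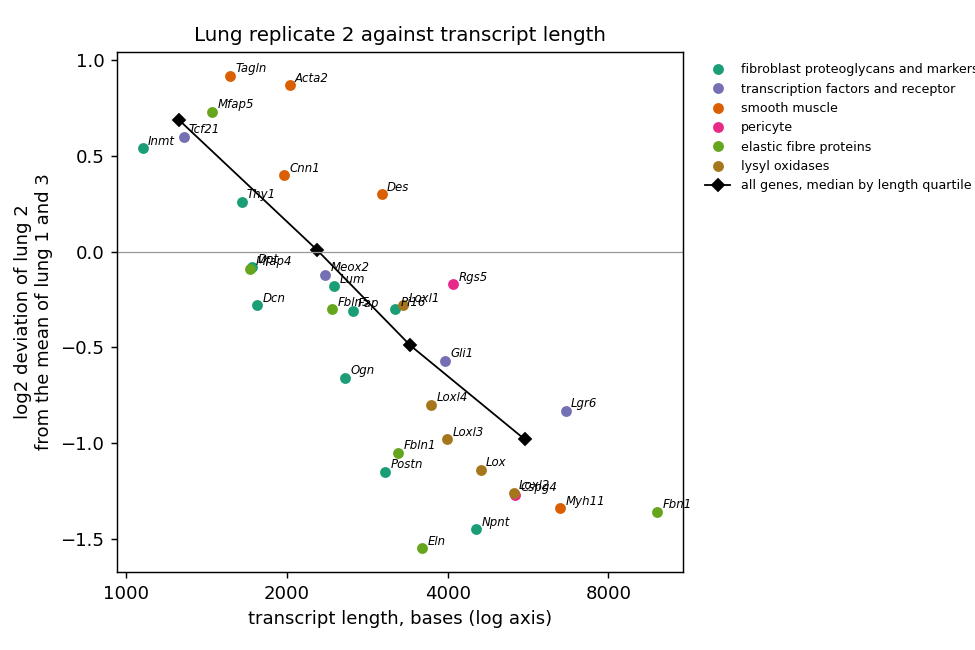
Log2 deviation of lung replicate 2 from the mean of lung replicates 1 and 3, with 0.5 CPM added, against transcript length on a log axis. Coloured points are the 32 genes and black diamonds the medians of all genes at 1 CPM or more in lung, by length quartile, which run from 0.69 for the shortest to -0.98 for the longest.

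The low stromal signal in the cell line was not even between its samples. Of the genes called higher in lung, 12 had 10 or more counts in cell line replicate 2, and 10 of these were lower in replicate 3. The ratio of replicate 3 to replicate 2 was 0.508 for Dcn, 0.392 for Tcf21, 0.200 for Eln, 0.159 for Loxl1 and 0.665 for Thy1. It was 0.764 for Fbn1, 0.762 for Tagln, 0.758 for Fbln5, 0.718 for Fbln1 and 0.657 for Des. The lowest ratios rest on few counts in replicate 3, with 4 for Loxl1, 7 for Eln and 9 for Tcf21, against 127 for Fbn1. Acta2 (1.10) and Myh11 (1.28) were the exceptions among the 12. Of the genes called higher that lacked 10 counts in replicate 2, Dpt (2.74), Rgs5 (1.37) and Gli1 (1.10) were higher in replicate 3, at 6 counts each. Pi16 also went up, from 0 to 2 counts. Summed markers of other cell types differed in this ratio. It was 0.579 for B cells, 0.590 for T cells, 0.625 for endothelial cells and 0.844 for airway cells. It was 0.926 for macrophages, 0.945 for Schwann cells and glia and 0.979 for mesothelium. Alveolar type 1, heart muscle and general epithelial markers each gave 1.01, alveolar type 2 markers 1.03 and skeletal muscle markers 1.13. Some of these sums rest mostly on 1 gene. In cell line replicates 2 and 3, Mrc1 held 163 and 172 CPM of macrophage sums of 226 and 210. All other macrophage markers were lower in replicate 3, with Lyz2 at 55.1 and 31.4 CPM and C1qa at 3.68 and 2.05 CPM. Msln, Abca3 and Tnnt2 likewise made up nearly all of the mesothelial, alveolar type 2 and heart muscle sums. The genes with a clear level in the cell line gave 1.06 for Npnt, 1.07 for Lgr6, 1.13 for Loxl2 and 0.925 for Loxl4. The part of other cell types in this signal was not tested.

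Genes related to the 32, on lists that share no gene with them, were mostly higher in lung too. These lists were chosen with earlier results of these data known, so their counts are a description and no separate support. Over 10 such lists, 65 of 98 genes tested rose and 11 fell, against 31.3% higher and 17.5% lower over all genes tested. The median log2 fold change was 3.77, against 0.08 over all genes. All 10 pericyte genes rose (median 6.91), among them Gucy1a1, a subunit of the nitric oxide receptor guanylate cyclase (151 ± 62.0 CPM in lung against 1.85 ± 0.510 CPM in the KP line), and Pdgfrb, the receptor that recruits pericytes (135 ± 55.0 CPM in lung against 2.20 ± 1.25 CPM in the KP line). All 9 lung mesenchyme genes rose (median 9.09, or 9.0 with bounds). Tbx2, a T-box factor of lung mesenchyme, stood at 144 ± 19.5 CPM in lung against 0.254 ± 0.129 CPM in the KP line, and Pdgfra, the receptor of alveolar fibroblasts, at 134 ± 70.7 CPM in lung against 1.90 ± 0.220 CPM in the KP line. Of 6 small leucine-rich proteoglycans tested, 5 rose (median 5.31). Bgn, biglycan, stood at 780 ± 286 CPM in lung against 288 ± 22.9 CPM in the KP line, and Prelp at 189 ± 93.9 CPM in lung against 1.36 ± 0.466 CPM in the KP line. Of 11 adventitial fibroblast genes 8 rose (median 3.75), including Gsn, the actin-severing protein gelsolin (1235 ± 494 CPM in lung against 171 ± 23.9 CPM in the KP line), and Ly6a (562 ± 165 CPM in lung against 165 ± 2.73 CPM in the KP line).

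Of 15 smooth muscle genes outside the 32, 11 rose and 2 fell (median log2 fold change 4.11), beside 31.3% and 17.5% of all genes. Mylk, the kinase that activates smooth muscle myosin, stood at 182 ± 75.5 CPM in lung against 15.5 ± 2.37 CPM in the KP line, and Csrp1 at 507 ± 96.2 CPM in lung against 168 ± 7.38 CPM in the KP line. Tpm1, a tropomyosin used by many cell types, fell, at 550 ± 138 CPM in lung against 1576 ± 486 CPM in the KP line. The number that fell was 1 without lung replicate 1, lung replicate 3, cell line replicate 2 or cell line replicate 3. Of the 3 tested among serum response factor and its coactivators (median log2 fold change -0.13), Mrtfa was lower in lung at 37.9 ± 6.21 CPM, against 69.9 ± 10.7 CPM in the KP line, a log2 fold change of -0.88 (edgeR adjusted p = 0.0192). That call was lost without lung replicate 1 (edgeR adjusted p = 0.0541), cell line replicate 2 (0.0631) or cell line replicate 3 (0.0695). No gene of that list was higher, but 2 were once lung replicate 2 was left out, and 1 once any cell line sample was. Srf itself stood at 45.9 ± 0.314 CPM in lung against 50.2 ± 16.3 CPM in the KP line (edgeR adjusted p = 0.737). Myocd, the smooth muscle coactivator, was at 0.654 ± 0.449 CPM in lung against 0.0347 ± 0.0306 CPM in the KP line and was too low to be tested.

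Of 13 elastic fibre genes tested outside the 32, 7 rose and 1 fell (median log2 fold change 1.49), beside 31.3% and 17.5% of all genes. Ltbp2, a latent TGF-beta binding protein of microfibrils, stood at 119 ± 54.3 CPM in lung against 5.40 ± 1.09 CPM in the KP line. Ltbp4 stood at 193 ± 116 CPM in lung against 68.6 ± 2.25 CPM in the KP line (log2 fold change 1.49, edgeR adjusted p = 0.0390), and its call was lost whenever any sample but lung replicate 2 was left out (edgeR adjusted p from 0.0997 to 0.109). Fbln2, a fibulin of vessels and basement membranes, was the one that fell, at 69.6 ± 30.8 CPM in lung against 794 ± 348 CPM in the KP line, a log2 fold change of -3.51 (SE 0.53, edgeR adjusted p = 9.38e-04). Its direction was opposite to that of Fbln1 and Fbln5. The number that fell was 2 without lung replicate 2.

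Of 10 fibroblast activation genes tested, 4 were higher and 3 lower (median log2 fold change 0.26), where 31.3% of all genes were higher and 17.5% lower, and nothing particular to the list is read from these counts. Sfrp1, a secreted Wnt antagonist, stood at 33.6 ± 16.9 CPM in lung against 0.80 ± 0.435 CPM in the KP line, and Col12a1, a fibril-associated collagen, at 29.7 ± 15.0 CPM in lung against 2.48 ± 0.494 CPM in the KP line. Inhba, the activin A subunit, fell, at 7.19 ± 3.31 CPM in lung against 135 ± 25.9 CPM in the KP line. Around Gli1, 7 of 14 hedgehog genes rose and 4 fell (median 1.64), beside 31.3% and 17.5% of all genes. Hhip, a hedgehog-binding antagonist, stood at 28.1 ± 16.7 CPM in lung against 0.0695 ± 0.0611 CPM in the KP line, and Boc, a co-receptor, at 22.8 ± 11 CPM in lung against 0.144 ± 0.201 CPM in the KP line. The log2 fold change of Boc, 7.17, was 9.39 with cell line replicate 1 left out and 6.57 with replicate 3 left out, and that of Hhip, 8.54, was 7.96 without cell line replicate 3. Smo, the signal transducer, fell, at 30.4 ± 13.1 CPM in lung against 88.1 ± 14.6 CPM in the KP line. Around Lgr6, 4 of 7 R-spondin and receptor genes tested rose (median 2.87) and none fell, beside the same shares of all genes. Rspo1, an R-spondin ligand, stood at 9.06 ± 4.30 CPM in lung against 0.101 ± 0.0941 CPM in the KP line, with a log2 fold change of 6.38 that was 7.19 with cell line replicate 1 left out and 5.78 with replicate 3 left out. Axin2, a Wnt target, stood at 21.1 ± 6.98 CPM in lung against 0.369 ± 0.209 CPM in the KP line. Without lung replicate 2 or lung replicate 3, 1 gene of that list was lower in lung.

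**Figure D5:**
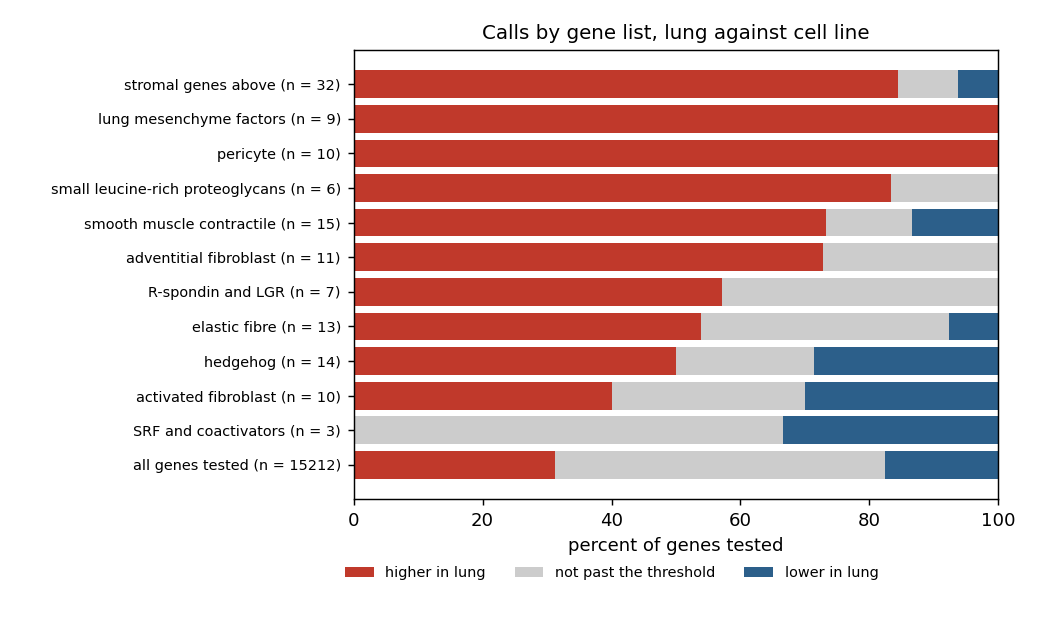
Percent of the genes tested in each list that were higher in lung (red), not past the threshold (grey) or lower in lung (blue) by the edgeR test, with the number tested in brackets. Pericyte and lung mesenchyme genes were all higher, and the activated fibroblast and hedgehog lists held more lower calls than the others with 5 or more genes; the bottom bar gives all 15212 genes.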

How the data were processed

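The authors deposited 1 table of estimated counts, with a row per transcript and a column for each of 6 samples. The submitters' processing notes name Salmon 1.4.0, FastQC 0.11.9 and DESeq2 1.32.0, with GRCm39 as the build. What DESeq2 was used for, which annotation was quantified and which transcripts were filtered is not given in the sources used here. Of 76776 transcripts, 76521 (99.67%) matched GENCODE M21, an annotation of another build used for names and lengths only, and were summed to 20687 symbols. The unmatched 255 held at most 0.416% of a sample's counts. Gene sums were rounded, and the quasi-likelihood test of edgeR 4.0.16 (R 4.3.3) was run with TMM scaling, the package's filter by group, robust dispersions and the group as the only term, over 15212 genes with Benjamini-Hochberg adjustment at 0.05. Differences are given as lung minus cell line on the log2 scale. With 0 cell line counts, a bound against 3 counts over the group is given. Intervals and bounds cover counting error only. TPM was computed from annotated lengths. Isoform lengths per sample were not used. Transcript shares are given only where a gene had 30 or more counts in each sample of a group.

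The members and lists were chosen with earlier results of these data known. All 32 genes were to be named; from each related list, the 2 called higher with the highest lung level and the 1 called lower with the highest cell line level. Srf, Myocd, Krt8, Nkx2-1, Myh6, Tnnt2 and Sox10, and the heart genes of the closing section, were named after their values were seen. Alternatives were DESeq2 1.42.0 size factors and Wald test, library size alone, limma-voom (limma 3.58.1), other filters, a 2-fold minimum, the replicate number as a block, and samples left out. The test was tried on simulated counts first. It called 2% of genes changed 2-fold and 65% of those changed 4-fold, and 7 of its 74 calls were false. The DESeq2 Wald test called 23% and 92%, with 48 of 163 calls false, and limma-voom 2% and 59%, with 4 of 65 false. A gene that did not pass may therefore still differ between the groups.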

Additional observations from a re-analysis of the deposited data

How the results depend on the processing

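The 27 higher and 2 lower calls among the 32 genes were also obtained in number with either DESeq2 alternative, limma-voom, scaling by library size alone, no filter, a 2-fold minimum and each sample left out in turn. Of 430 refitted values for single genes, 426 kept their direction and their side of the threshold. The exceptions were Loxl2, at -0.04 without lung replicate 3 (0.49 without lung replicate 2), and Npnt, Loxl2 and Loxl3, which passed without lung replicate 2 and cell line replicate 1 together (29 higher and 3 lower). Pi16 was then at 7.63, against 6.96, Postn at 10.38, against 9.47, and Ogn at 9.80, against 8.11. That fit also gave 5425 lower calls over all genes, against 2664, and 20 over the related lists, against 11. Requiring 10 or more counts in all 6 samples left 9 higher calls among the 32 genes, 28 over the related lists, and 2673 higher and 1613 lower over all genes, in a filter that tests fewer genes. Library size alone gave 1730 lower calls over all genes. Leaving out Npnt, chosen after the data had been seen, lowered the mean summed level in the cell line to 197 CPM, against 908. Replicate numbers did not pair the samples: deviations of same-numbered samples correlated at -0.042, 0.082 and -0.083. With the replicate block the calls were 27 and 2 among the 32 genes and 4634 and 2526 over all genes. The CArG box search in members' windows gave 0 exactly and 18.18% with 1 letter off. Depth limits genes such as Meox2, Cspg4 and Pi16 in the cell line, at 5 counts or fewer over 3 samples. The comparison of lysyl oxidase proteins planned at the start was not run.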

Other observations

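Genes of heart muscle were present in every lung sample. Actc1, cardiac actin, stood at 22.7, 44.9 and 28.1 CPM in lung and at 2 counts over the cell line samples. Myl7, the atrial myosin light chain, stood at 13.1, 42.5 and 11.5 CPM in lung and at 0, 0.345 and 0.105 CPM in the cell line, and Tnni3, cardiac troponin I, at 8.74, 21.7 and 8.10 CPM in lung and 0, 0.115 and 0.158 CPM in the cell line. Lung replicate 2 was the highest for these 3 genes and the lowest for Myh6. The atrial hormone gene Nppa stood at 0.240, 1.41 and 0.363 CPM in lung and had 0 counts in the cell line. Tnnt2, cardiac troponin T, differed from the rest of its list, at 24.3, 31.2 and 20.1 CPM in lung and 24.5, 74.0 and 75 CPM in the cell line, with overlap between groups and an edgeR adjusted p of 0.0496 for a lower level in lung.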
